A study of Caenorhabditis elegans with 11 samples.

Results

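The outermost 150 kb at both ends of chromosomes II, III, IV and X of the nematode Caenorhabditis elegans were examined for RNA polymerase II (Pol II). These 8 end zones were chosen by position: bins of 1 kb in the first or last 150 kb of a chromosome, 1200 of the 100257 bins in the deposited table. Bins from 150 to 450 kb from the same ends, 2400 in all, served as the inner control. Pol II had been mapped by chromatin immunoprecipitation and sequencing in whole young adult hermaphrodites fed Escherichia coli OP50, in 1 library for each combination of 3 genotype factors. The alleles were tm1200 of hrde-1, red11 of set-32, and n4256 of met-2 together with n5021 of set-25. The mutant libraries were hrde-1, set-32 and met-2 set-25 alone, hrde-1 with set-32, hrde-1 with met-2 set-25, set-32 with met-2 set-25, and the loss of all 3 factors together, called the full mutant below. The wild-type library was N2. The series also holds 3 libraries for trimethylated lysine 9 of histone H3 (H3K9me3), which were not analysed here. With 1 library per genotype, each factor was tested as the 4 libraries that lacked it against the 4 that carried it. The spread behind each fit is what remains between libraries once all 3 factors are fitted, pooled in part or wholly over windows or bins. Spread between cultures of 1 genotype was not measured.

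HRDE-1 is an Argonaute protein of the germline that carries small RNAs into the nucleus and lowers transcription of their targets, a process called nuclear RNAi. The enzymes MET-2 and SET-25 methylate lysine 9 of histone H3, a mark that lies mostly on the repeat-rich arms and ends of the worm's chromosomes and helps hold them at the nuclear edge. SET-32 has the same SET domain and takes part in the onset of nuclear silencing. Each chromosome closes in a telomere of short repeats, next to sequence in which genes and repeats are mixed and some stretches resemble those at other ends.

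Values are RPKM, reads in a bin scaled by its length and by the reads of the library. In bins of equal length the values compare as fractions of a library, so fewer cells of a type, fewer copies of a DNA stretch and less Pol II on each copy cannot be told apart. The libraries held an estimated 2990000 to 6590000 reads, which gives a counting error of 12.3% to 18.3% for a 1 kb bin at 10 RPKM. The full mutant and the set-32 met-2 set-25 mutant were covered more evenly than the other 6: the 90th percentile of all bins was 4.31 and 3.72 times the 10th, against 7.63 to 24.96 times. None of the end zone bins carried either of the authors' marks GRTS or GRH, which mark 191 (0.191%) and 215 (0.214%) bins of the table. Whether their absence differs from these low shares was not tested. The mark misanotated was on 17 end zone bins (1.42%), against 0.505% of the table and 0.5% of the inner control. Of the 17, 7 lay at the left end of X and 7 at the right end of III. The sources used here do not give the table's genome build, so regions are named by position and no gene is assigned to them, and Pol II at the mutated genes was not examined.

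The 8 ends differed in level. By the median over 8 libraries, the right end of III held the most Pol II, with a median bin of 9.97 RPKM (lowest library 8.09, highest 11.8). The left end of II followed at 7.38 RPKM (6.26 to 8.16), then the left end of X at 6.47 RPKM (2.61 to 8.44), the right end of II at 5.76 RPKM (4.31 to 7.61) and the left end of IV at 5.41 RPKM (4.61 to 7.26). Lowest were the left end of III at 4.61 RPKM (3.72 to 6.85), the right end of X at 3.29 RPKM (2.31 to 6.43) and the right end of IV at 2.85 RPKM (1.98 to 5.94). The ranges of all neighbours in this order overlapped. Relative to the inner control, the left end of III and both ends of IV were poor in Pol II in all 8 libraries: the end-minus-inner difference, which is the median log2(RPKM + 1) of the zone minus that of the inner control, averaged -0.78 ± 0.30, -0.54 ± 0.13 (IV left) and -0.57 ± 0.22 (IV right) (SD, n = 8). The left end of X had the widest range, from -0.67 to 0.56.

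**Figure D1:**
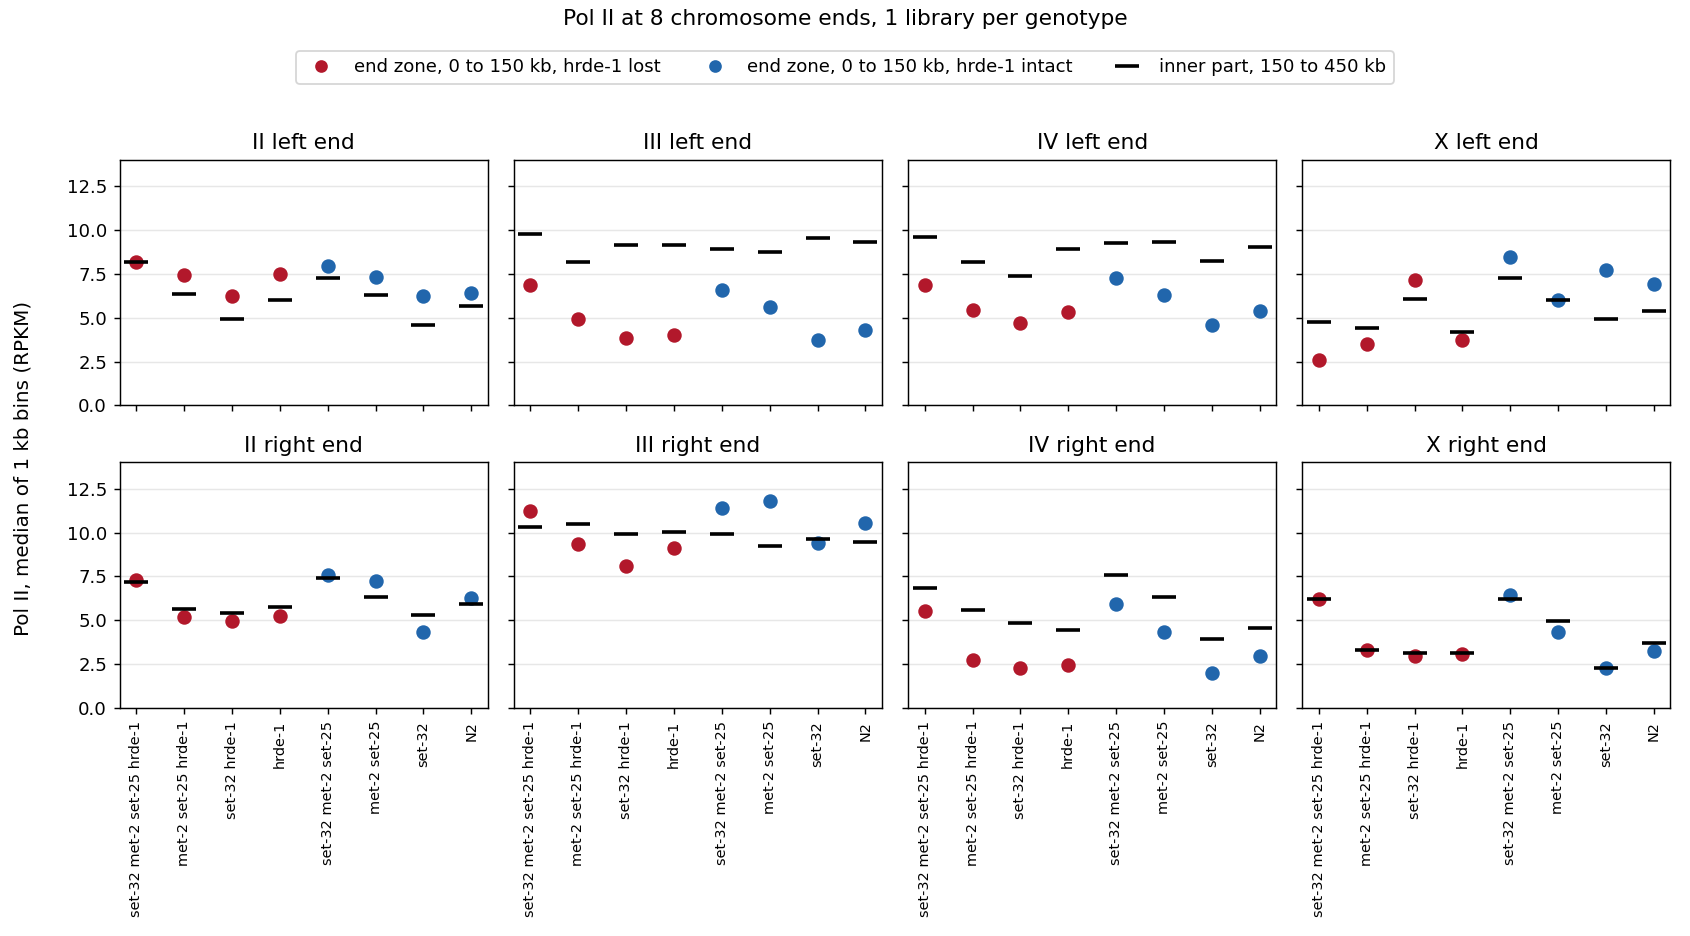
Median Pol II (RPKM) of the 1 kb bins in each end zone (points) and in its inner control (dashes), for 1 library per genotype, with hrde-1 mutants in red left of the libraries with intact hrde-1 in blue. At the left end of X the full, met-2 set-25 hrde-1 and hrde-1 mutants (the full mutant leftmost) sit at 2.61, 3.48 and 3.71 RPKM, below the 4 blue points at 6.02 to 8.44 RPKM, while set-32 hrde-1 sits among them.

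Of the 8 ends, the left end of X was the one whose level was called lower with hrde-1 loss. Its median bin held 3.71 RPKM in the hrde-1 mutant, 7.13 in the set-32 hrde-1 mutant, 3.48 in the met-2 set-25 hrde-1 mutant and 2.61 in the full mutant, against 7.73 in set-32, 6.02 in the met-2 set-25 mutant, 8.44 in the set-32 met-2 set-25 mutant and 6.93 in N2. Of the 4 mutants, 3 lay below every library with intact hrde-1, and set-32 hrde-1 lay within their range. The level fell by 0.72 ± 0.15 (log2(RPKM + 1), estimate and SE) in a limma fit over 662 windows of 150 kb tiled across the genome (adjusted p = 0.000597), and it was the 1 window called lower with hrde-1 loss, 0.151% of those tested (0.604% were called higher, none of them among the 8 end zones). Paired by background, the level was lower in 4 of 4 hrde-1 mutants, by a difference of -0.75 against N2, -0.65 against met-2 set-25, -1.39 against the set-32 met-2 set-25 mutant and -0.10 against set-32. In this fit limma took the spread as known from all windows. An exact permutation test of the 4 mutant against the 4 intact libraries, which cannot go below 0.0286, gave a two-sided p of 0.0857 (0.257 adjusted over the 24 tests of end and factor). The level of III right was also lower in 4 of 4 backgrounds, by 0.18 ± 0.07 in the fit, and did not pass (adjusted p = 0.467 by limma). Estimates for the remaining ends lay between -0.16 (IV right) and 0.07 (II left).

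The call at the left end of X also rested on the scale and on single libraries. It was lost after quantile normalization (log2 change -0.69, adjusted p = 0.183 by limma), without the met-2 set-25 mutant (-0.69, adjusted p = 0.0874) and without the set-32 met-2 set-25 mutant (-0.61, adjusted p = 0.237). It held without both evenly covered libraries, at -0.50 (adjusted p = 0.00375 by limma), and without the full mutant, at -0.51 (adjusted p = 0.0193). Library names in the labels begin with 1 of 3 prefixes, whose meaning is not stated. With the prefix as a term, which set the prefix of 4 libraries against the others together, the change was -0.38 (adjusted p = 0.999 by limma). Within the prefix of 4 libraries, the hrde-1, set-32 hrde-1 and full mutants had medians of 3.71, 7.13 and 2.61 RPKM, against 7.73 RPKM in set-32. Within the prefix of 3 libraries, met-2 set-25 hrde-1 had 3.48 RPKM, against 6.02 in the met-2 set-25 mutant and 6.93 in N2. The third prefix holds set-32 met-2 set-25 alone and had no term of its own.

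No end passed in the end-minus-inner difference with hrde-1 loss. The left end of X differed by -0.49 ± 0.10 (adjusted p = 0.159 by limma) and the right end of III by -0.26 ± 0.07 (adjusted p = 0.317). In the whole genome, 0% of windows passed in either direction, and 38 had an unadjusted p under 0.05. Each of these 2 ends was lower in 4 of 4 backgrounds, with differences of -0.86 to -0.27 at the left end of X and -0.47 to -0.07 at the right end of III. The inner control of X left was itself part of the low stretch: with hrde-1 loss the window from 150 to 300 kb differed by -0.37 ± 0.14 in level (adjusted p = 0.314 by limma), that from 300 to 450 kb by -0.07 and that from 450 to 600 kb by -0.15. When averages replaced medians, X left passed in the difference (-0.39, adjusted p = 0.0164 by limma), as it did with windows of 100 kb (-0.55, adjusted p = 0.0147), without set-32 (-0.47, adjusted p = 0.0138) and without the met-2 set-25 hrde-1 mutant (-0.59, adjusted p = 0.00262). III right passed with the inner control moved to 300 to 600 kb (-0.47, adjusted p = 0.0219 by limma) and without set-32 (-0.30, adjusted p = 0.0379). The other 6 ends had estimates between -0.14 (IV right, SE 0.12) and 0.05 (X right, SE 0.06).

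**Figure D2:**
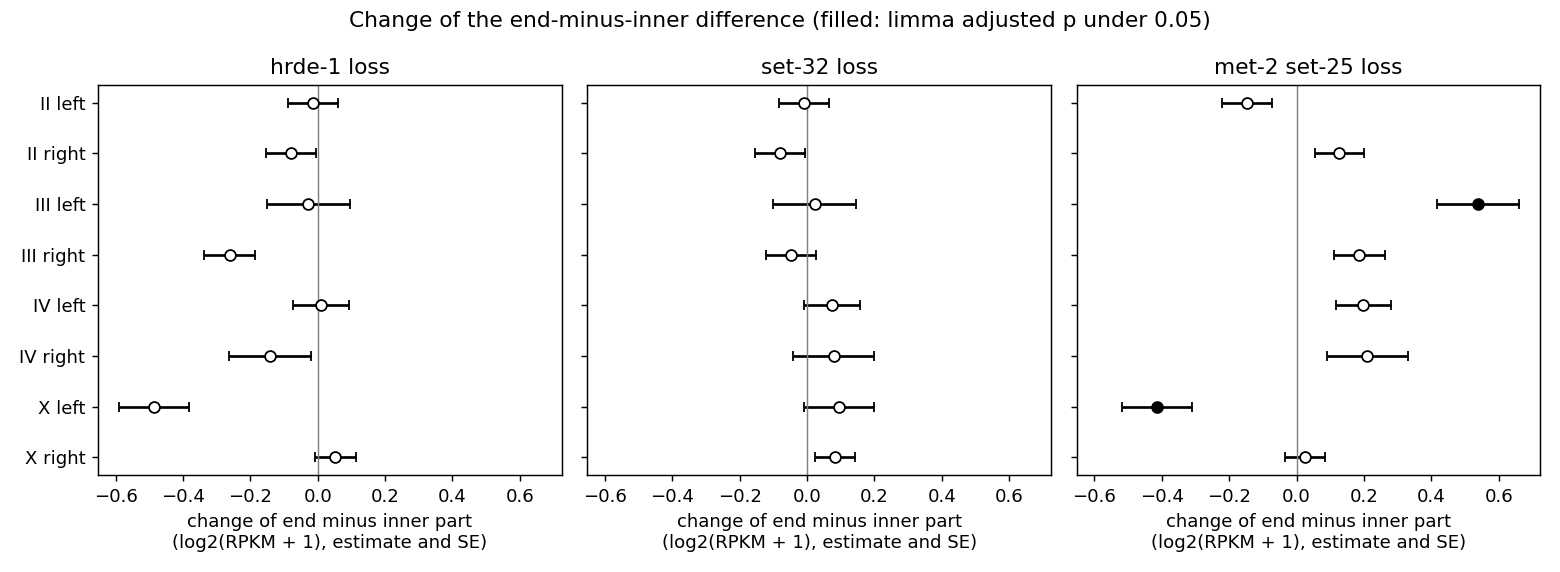
Change of the end-minus-inner difference (log2(RPKM + 1), mutant minus intact) at each end for loss of hrde-1, of set-32 and of met-2 set-25; points are limma estimates over 8 libraries, bars are SE, and filled points have an adjusted p under 0.05. Filled points are III left (0.54) and X left (-0.42) with met-2 set-25 loss, while all set-32 estimates lie between -0.08 and 0.10.

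Single bins were tested too. They make up the windows above and come from the same 8 libraries, so their calls are not separate evidence. Of 1197 end zone bins that reached a mean of 2 RPKM over the 8 libraries, 22 fell with hrde-1 loss, all of them at the left end of X, and 3 rose. Over all 100027 bins tested, 0.08% were called lower and 0.852% higher. At the left end of X, 145 of 149 bins tested had a negative estimate and the median change was -0.67, while the medians of the other 7 ends ran from -0.13 to 0.01. Of the 22 lower bins, 15 lay in the outer 50 kb, 7 between 50 and 100 kb and 0 between 100 and 150 kb. Further in, 21 more were called between 150 and 200 kb, 1 between 200 and 250 kb and 0 from there to 600 kb. The 3 bins below the filter, 2 at III left and 1 at X left, were not tested.

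The 22 bins merged into 9 regions. Over X 5001 to 11000, Pol II averaged 7.41 RPKM in the hrde-1 mutant, 14.6 in the set-32 hrde-1 mutant, 6.68 in the met-2 set-25 hrde-1 mutant and 4.22 in the full mutant, against 19.2 in set-32, 12.9 in the met-2 set-25 mutant, 17.1 in the set-32 met-2 set-25 mutant and 17.6 in N2. It fell by 1.06 ± 0.23 on the log2 scale (smallest limma adjusted p = 0.000755). The 4 mutants stood in the same order at X 42001 to 45000, where the full mutant held 5.36 RPKM, the met-2 set-25 hrde-1 mutant 5.97, the hrde-1 mutant 7.76 and the set-32 hrde-1 mutant 32.3, against 41.0 in set-32, 11.7 in the met-2 set-25 mutant, 22.0 in the set-32 met-2 set-25 mutant and 31.3 in N2 (log2 change -1.24 ± 0.24, adjusted p = 0.00112 by limma). Here set-32 hrde-1 lay above 3 of the 4 libraries with intact hrde-1, while over X 5001 to 11000 it lay above met-2 set-25 alone. Across the 9 regions the log2 change ran from -1.47 (X 35001 to 36000) to -1.06, and in each of them set-32 hrde-1 was the highest of the 4 mutants. The other regions began at X 20001, X 25001, X 32001, X 48001, X 55001 and X 93001.

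The count of 22 moved with the libraries and the scale. It was 1 once libraries were quantile normalized, 0 with the prefix as a term, 4 without both evenly covered libraries and 2 among bins averaging at least 5 RPKM. Leaving out 1 library gave 4 without hrde-1, 6 without the set-32 met-2 set-25 mutant, 13 without the met-2 set-25 mutant, 19 without the full mutant, 39 without set-32 and 47 without set-32 hrde-1. Of these, 13 of the 19, 33 of the 39 and 45 of the 47 lay at the left end of X, and the others at other ends. Of the 9 regions, X 42001 to 45000 passed under 15 of the 16 alternatives, X 5001 to 11000 under 14 and X 48001 to 53000 under 13. The regions that began at X 35001 and X 93001 passed under 11, that at X 32001 under 10, those at X 25001 and X 55001 under 8 and that at X 20001 under 7. These counts do not mean that every bin of a region passed, since after quantile normalization only 1 end zone bin was called lower.

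By distance from the end, the low stretch of X had an inner limit in the full mutant. In 10 kb steps, the largest change with hrde-1 loss within the outer 150 kb lay at 40 to 50 kb (-1.24 on the log2 scale), and the step from 150 to 160 kb, just inside the zone's border, changed by -1.43. Steps from 210 to 260 kb changed by -0.21 to 0.06, and those from 260 to 290 kb by -0.64 to -0.30. From 40 to 50 kb the median bin held 5.63 RPKM in the hrde-1 mutant, 22.1 in the set-32 hrde-1 mutant, 4.36 in the met-2 set-25 hrde-1 mutant and 2.75 in the full mutant, against 28.6 in set-32, 9.71 in the met-2 set-25 mutant, 13.7 in the set-32 met-2 set-25 mutant and 18.7 in N2. The limit, at 288 kb, was chosen after the values were seen and is given without a test. In the full mutant, 216 of the first 288 bins of X (75%) lay under 4.24 RPKM, which is that library's own 10th percentile of all bins, against 1.39% to 7.64% of these bins in the other 7 libraries by their own 10th percentiles. From 296 to 600 kb the share was 16.8% in that library, against 9.21% to 12.5%. Its median was 2.53 RPKM in the first stretch and 5.87 RPKM in the second, where set-32 met-2 set-25 held 7.96 and 6.27 RPKM. The bin at X 287001 read 2.00 RPKM in the full mutant and the next, at X 288001, 17.1 RPKM, against 5.40 and 11.2 RPKM in N2. The bins from X 288001 to X 295001 reached 197 RPKM in the full mutant, against 221 in the set-32 met-2 set-25 mutant and 83.5 in N2.

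**Figure D3:**
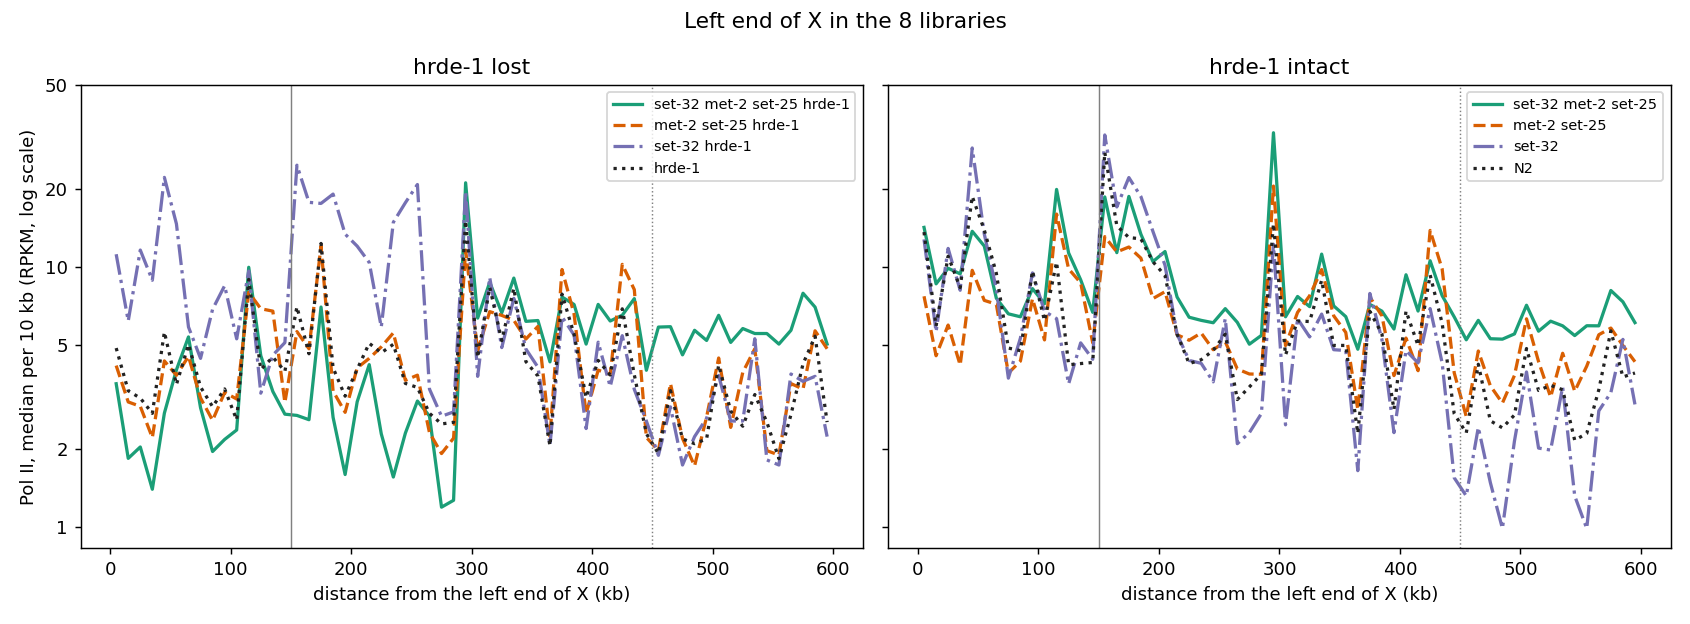
Median Pol II per 10 kb (RPKM, log scale) against distance from the left end of X (kb), with hrde-1 mutants on the left and libraries with intact hrde-1 on the right; the solid and dotted vertical lines stand at 150 and 450 kb. Up to about 288 kb the line of the full mutant lies lowest in most steps and reaches 1.19 RPKM, and beyond it that line lies among the higher ones.

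The densest 100 kb of such low bins anywhere in the genome of the full mutant began at X 186001, with 80 of 100 bins. In the other 7 libraries the densest 100 kb held 43 to 65 low bins and lay on V or IV. All 7 bins marked misanotated in the first 288 kb of X were above the 10th percentile in the full mutant. One of them, X 113001 to 114000, had the highest mean of the end zone: 60.9 RPKM in the hrde-1 mutant, 66.2 in the set-32 hrde-1 mutant, 48.8 in the met-2 set-25 hrde-1 mutant and 58.9 in the full mutant, against 40.1 in set-32, 99.5 in the met-2 set-25 mutant, 129.6 in the set-32 met-2 set-25 mutant and 63.9 in N2. It did not pass with hrde-1 loss (log2 change -0.37 ± 0.29, adjusted p = 1.00 by limma).

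The hrde-1 and met-2 set-25 hrde-1 libraries were also low over the same end. With the 150 bins ordered by their mean over the 8 libraries, the highest 50 had medians of 6.995 RPKM in the hrde-1 mutant, 15.2 in the set-32 hrde-1 mutant, 6.26 in the met-2 set-25 hrde-1 mutant and 4.58 in the full mutant, against 15.8 in set-32, 10.8 in the met-2 set-25 mutant, 14.3 in the set-32 met-2 set-25 mutant and 15.5 in N2. In the lowest 50 the medians were 2.39 RPKM in the hrde-1 mutant, 3.34 in the set-32 hrde-1 mutant, 2.25 in the met-2 set-25 hrde-1 mutant and 1.495 in the full mutant, against 3.50 in set-32, 3.66 in the met-2 set-25 mutant, 6.23 in the set-32 met-2 set-25 mutant and 4.08 in N2. Under each library's own 10th percentile, however, lay 7.33% of the zone's bins in hrde-1 and 6% in the met-2 set-25 hrde-1 mutant, with 73.3% in the full mutant and 0.667% in set-32 hrde-1, against 5.33% in both the met-2 set-25 and the set-32 met-2 set-25 mutants, 2% in set-32 and 0.667% in N2. In set-32 hrde-1 Pol II was high from 230 to 260 kb, at 14.8 to 20.7 RPKM per 10 kb step, while hrde-1 held 3.45 to 5.05 RPKM, set-32 3.62 to 6.33 and N2 4.4 to 5.52.

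**Figure D4:**
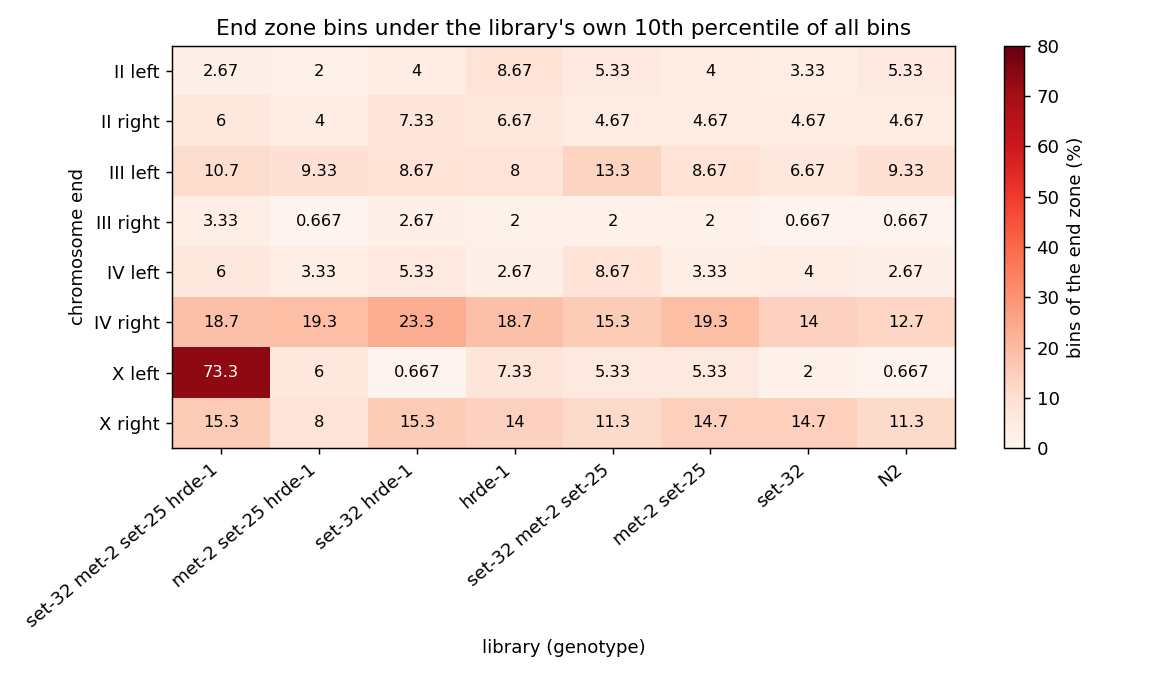
Share of the 150 bins of each end zone (rows) under the library's own 10th percentile of all bins (columns, hrde-1 mutants left of libraries with intact hrde-1), in percent. The left end of X in the full mutant stands at 73.3%, and the highest of the other 63 cells is 23.3%, at the right end of IV in set-32 hrde-1.

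The bins that rose with hrde-1 loss were few and lay at 2 ends. Over II 16001 to 18000, hrde-1 held 23.8 RPKM, the set-32 hrde-1 mutant 13.8, the met-2 set-25 hrde-1 mutant 11.1 and the full mutant 17.8, against 6.39 in set-32, 8.51 in the met-2 set-25 mutant, 8.63 in the set-32 met-2 set-25 mutant and 6.95 in N2. All 4 mutants lay above all 4 intact libraries, and Pol II rose by 0.99 ± 0.22 on the log2 scale (smallest limma adjusted p = 0.00716). This call held under 14 of 16 alternatives, in some of which only 1 end zone bin rose. At X 17711001 to 17712000, the bin with the highest mean of the right end of X, the hrde-1 mutant held 29.4 RPKM, the set-32 hrde-1 mutant 59.4, the met-2 set-25 hrde-1 mutant 22.8 and the full mutant 22.8, against 21.8 in set-32, 14.5 in the met-2 set-25 mutant, 15.7 in the set-32 met-2 set-25 mutant and 16.6 in N2. It rose by 0.83 ± 0.20 (adjusted p = 0.0388 by limma), a call kept under 6 of 16 alternatives. No bin rose with the prefix as a term or without hrde-1, and 1 rose without N2, without set-32, when libraries were centred, after quantile normalization and among bins averaging 5 RPKM or more. The bins with the highest mean at the other 6 ends ran from 35.7 to 62.4 RPKM and did not pass for any factor.

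The outermost bin of each chromosome was looked at after its values were seen. Its estimate with hrde-1 loss was negative at 8 of 8 ends, with a median log2 change of -0.51 and a range of -0.84 (X left) to -0.09 (III left). By limma 6 of the 8 had an unadjusted p under 0.05 and 0 passed after adjustment over all bins. At the left end of X the bin averaged 11.5 ± 4.59 RPKM in the 4 hrde-1 mutants and 20.3 ± 3.77 in the 4 libraries with intact hrde-1 (SD, n = 4 each; adjusted p = 0.0867 by limma), and at the left end of II 9.18 ± 1.27 and 14.1 ± 2.45 RPKM (adjusted p = 0.501). With the prefix as a term all 8 estimates were negative, with a median of -0.41 and none under an unadjusted p of 0.05. The 8 bins may not be independent, which was not tested, and the sources used here do not say whether reads were divided between ends. Of their values, 26.6% lay within 0.1 of whole reads, against 56.9% in other end zone bins of 3 to 25 RPKM. The cause of the lower share was not tested.

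**Figure D5:**
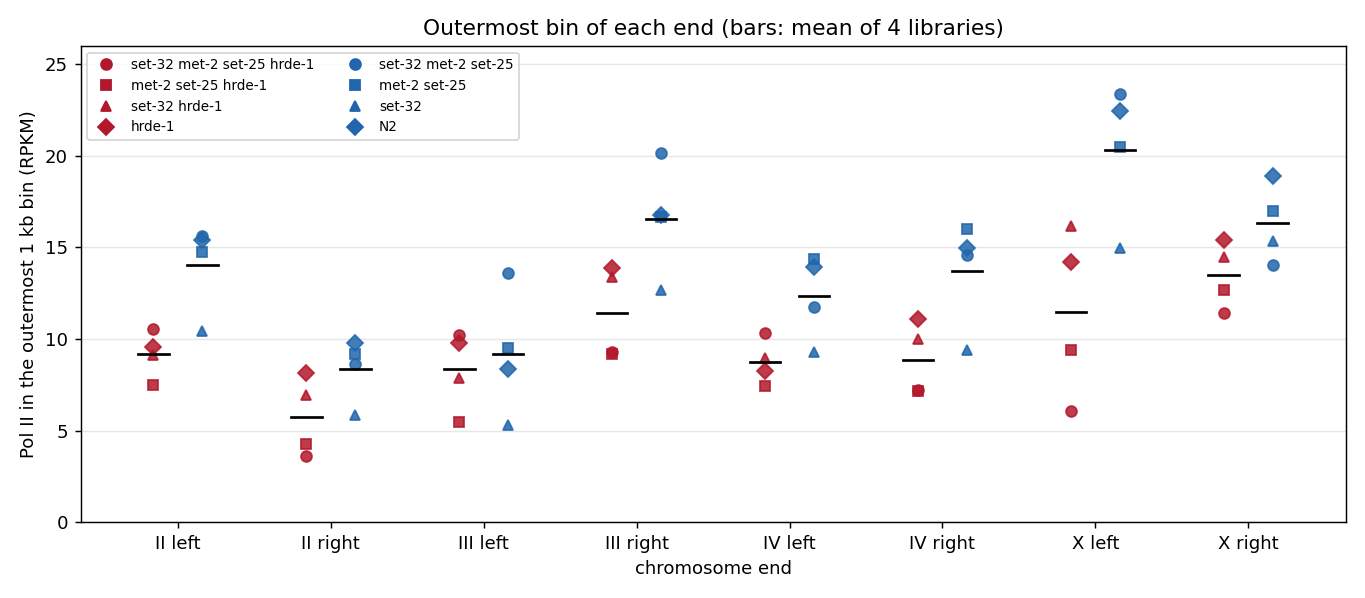
Pol II (RPKM) in the outermost 1 kb bin of each end, with the 4 hrde-1 mutants (red) left of the 4 libraries with intact hrde-1 (blue) and bars at the mean of each 4. The red mean is below the blue mean at all 8 ends, from 11.5 against 20.3 RPKM at X left to 8.35 against 9.19 RPKM at III left, and the ranges of the colours overlap at all 8 ends.

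With set-32 loss, 0 of 8 ends passed in the difference or in the level, and 0 of 1197 end zone bins passed in either direction by limma. The background was 0% of windows in both, 0% of bins higher and 0.001% lower, and 17 windows had an unadjusted p under 0.05 in the difference. Estimates of the difference lay between -0.08 ± 0.07 (II right) and 0.10 ± 0.10 (X left). The left end of X was higher in 3 of 4 set-32 mutants than in their partners and lower in the full mutant than in the met-2 set-25 hrde-1 mutant, with medians of 2.61 against 3.48 RPKM. In the pair with hrde-1 lost alone, set-32 hrde-1 held 7.13 RPKM, against 3.71 in hrde-1. No interaction of 2 factors in the difference passed at any end, and 0% of the 662 windows passed for any pair in either direction.

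With met-2 set-25 loss, the left end of III rose and the left end of X fell relative to the inner control. The inner control moved too. In level, the end zone of III left changed by 0.48 ± 0.19 (adjusted p = 0.0295 by limma) and the window from 150 to 300 kb by -0.19 ± 0.07 (adjusted p = 0.0295). At X left the end zone changed by -0.33 ± 0.15 (adjusted p = 0.0473 by limma), the window from 150 to 300 kb by -0.42 ± 0.14 (adjusted p = 0.0166) and that from 300 to 450 kb by 0.31 ± 0.16 (adjusted p = 0.0749). At the left end of III the difference was -0.56 in the met-2 set-25 mutant, -0.38 in the set-32 met-2 set-25 mutant, -0.64 in the met-2 set-25 hrde-1 mutant and -0.46 in the full mutant, against -1.01 in hrde-1, -1.16 in set-32, -1.07 in set-32 hrde-1 and -0.96 in N2. The 4 values with loss lay above the 4 without, by 0.54 ± 0.12 (adjusted p = 0.0376 by limma), and the exact permutation test gave its smallest p of 0.0286 (0.343 adjusted over 24 tests). The left end of IV was separated too, at -0.52 to -0.32 with loss against -0.72 to -0.54 without, and had the same p of 0.0286 in the exact permutation test. Its change of 0.20 ± 0.08 did not pass (adjusted p = 0.114 by limma). In the genome, 3.02% of windows passed in each direction, and whether 1 of 8 ends differs from that share was not tested. The median bin of III left followed that of its library, at 0.93 to 1.05 times the median of all bins in each of the 8 libraries. The change was 0.12 after quantile normalization (adjusted p = 0.501 by limma) and 0.38 without both evenly covered libraries (adjusted p = 0.818). It was also lost with averages in place of medians, with the prefix as a term and when any 1 mutant was left out except set-32 and met-2 set-25 hrde-1. Without met-2 set-25 hrde-1, 5 ends were called higher.

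At the left end of X the difference was 0.01 in the met-2 set-25 mutant, 0.19 in the set-32 met-2 set-25 mutant, -0.27 in the met-2 set-25 hrde-1 mutant and -0.67 in the full mutant, against -0.14 in hrde-1, 0.56 in set-32, 0.20 in set-32 hrde-1 and 0.31 in N2. The groups overlapped, each mutant was lower than its partner in 4 of 4 backgrounds, and the difference fell by 0.42 ± 0.10 (adjusted p = 0.0413 by limma). The exact permutation test gave p = 0.143. The change was -0.21 without both evenly covered libraries (adjusted p = 0.818 by limma) and -0.27 without the full mutant (adjusted p = 0.131). It was also lost with averages, a pseudocount of 5 RPKM, quantile normalization or the prefix as a term, without marked bins or the outermost 10 kb, and when 1 further mutant was left out, other than set-32 or met-2 set-25 hrde-1. The level of 7 ends rose and that of X left fell with met-2 set-25 loss, but so did 66.5% and 6.95% of all windows, whose median shifted by 0.48, and with libraries centred or quantile normalized no end was called higher.

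In single bins, 7 fell with met-2 set-25 loss and 0 rose, against 0.127% lower and 0.318% higher over all bins. Of the 7, 6 lay at the left end of X, within X 42001 to 45000, X 48001 to 50000 and X 52001 to 53000, and all 6 were also among the 22 that fell with hrde-1 loss. Both contrasts share the same 8 libraries. Over X 48001 to 50000 the 4 libraries with loss held 9.74 RPKM in the met-2 set-25 mutant, 12.8 in the set-32 met-2 set-25 mutant, 2.73 in the met-2 set-25 hrde-1 mutant and 1.96 in the full mutant, against 4.37 in hrde-1, 29.9 in set-32, 25.9 in set-32 hrde-1 and 19.9 in N2. The seventh bin, III 13648001 to 13649000, held 27.3 RPKM in the met-2 set-25 mutant, 20.6 in the set-32 met-2 set-25 mutant, 16.5 in the met-2 set-25 hrde-1 mutant and 17.9 in the full mutant, against 54.2 in hrde-1, 44.5 in set-32, 39.4 in set-32 hrde-1 and 40.5 in N2. The groups did not overlap there, and Pol II fell by 1.09 ± 0.20 (adjusted p = 0.0113 by limma), a call kept under 10 of 16 alternatives. The bins called lower at the left end of X numbered 0 without both evenly covered libraries, after quantile normalization or among bins averaging 5 RPKM or more. Their number was 75 with libraries centred. Leaving out 1 library gave 3 without set-32 hrde-1 or without the set-32 met-2 set-25 mutant, 4 without the full mutant or without met-2 set-25 alone, 18 without N2 and 43 without the met-2 set-25 hrde-1 mutant.

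One stretch of III left depended on combinations of factors. Over III 62001 to 67000, Pol II was 14.4 RPKM in hrde-1, 6.16 in set-32, 24.8 in the met-2 set-25 mutant, 12.3 in set-32 hrde-1, 9.67 in the met-2 set-25 hrde-1 mutant, 14.5 in the set-32 met-2 set-25 mutant and 23.0 in the full mutant, against 43.9 in N2. N2 stood highest and set-32 lowest. The stretch was formed by joining 5 bins that each passed for an interaction of hrde-1 and set-32 loss. Their terms averaged 2.18 on the log2 scale, with a mean SE of 0.43 (smallest limma adjusted p = 1.86e-05). Of all bins, 0.133% were called in this direction and 0.021% in the other. Loss of set-32 went with a lower value where hrde-1 was intact and with a like or higher value where hrde-1 was lost. The next bin outward, III 61001 to 62000, passed for set-32 with met-2 set-25 (2.82 ± 0.50, adjusted p = 0.0272 by limma; background 0.036%). At X 59001 to 60000 the same pair of factors interacted in the other direction (-2.76 ± 0.53, adjusted p = 0.0380 by limma; background 0.216%), with 6.18 RPKM in the full mutant and 96.2 in set-32 hrde-1, against 41.0 in N2. Over all end zones, the count of bins with the first interaction was 0 with libraries centred, after quantile normalization and among bins averaging 5 RPKM or more. It was also 0 without the met-2 set-25 hrde-1 mutant, and 1 without N2 and without set-32. Where the count was not 0, whether it included the 5 bins named here is not given. The number was 3 without the full mutant, 8 without the set-32 met-2 set-25 mutant, 9 without hrde-1 and 14 without both evenly covered libraries. For the second pair the count of 2 was 0 after quantile normalization, among bins averaging 5 RPKM or more and when N2, the hrde-1, set-32 or met-2 set-25 hrde-1 mutant, or the full mutant was left out. It was 4 without the set-32 met-2 set-25 mutant, 17 without met-2 set-25 alone and 77 without set-32 hrde-1.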

How the data were processed

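The authors deposited 1 table of Pol II in 1 kb bins in RPKM. The submitters' processing notes name Bowtie 0.12.7 as aligner. The sources used here do not give the build, filters or handling of repeated reads. Columns were matched to samples by library name, and 35 other library columns were not used. Yes-or-no marks (GRTS, GRH, misanotated) are the authors' deposited annotations. Depth was estimated from the steps between low values, with 83.0% to 84.6% of them within 0.1 of a whole read, too few to recover counts.

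The value tested was log2(RPKM + 1), in R 4.3.3 with limma 3.58.1 (trend, 4 residual degrees of freedom, additive in 3 factors; interactions 1 at a time, 3 degrees of freedom). Features were 662 windows of 150 kb tiled inward from every chromosome end and 100027 bins averaging 2 RPKM or more. The difference subtracts the median of the 300 kb further in. P-values were two-sided, Benjamini-Hochberg adjusted over all features, with a threshold of 0.05. The prior degrees of freedom were 7.31 (difference), infinite (level) and 22.0 (bins). The fits were tested on simulated data. Called bins were joined across gaps of up to 1 bin, and all such regions are named, with the bin of highest mean at each end. The values, changes and SEs of a region are means over its called bins. The members and lists were chosen with earlier results of these data known. The exact permutation test, the limits at 288 and 296 kb, the ordering of bins by mean, the shares under the 10th percentile and the outermost bins were added after seeing the data. Figures were drawn with matplotlib 3.10.9.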

Additional observations from a re-analysis of the deposited data

Results flagged for a closer look

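In 48 groups of 4 libraries (8 ends, 3 factors, with and without loss), 1 held a library far from its other 3. A rate of about 1 in 20 by chance would hold for 4 replicates. It may not apply here, since each group holds 4 genotypes and the groups share libraries. It was the right end of II in the hrde-1 mutants: the end-minus-inner difference was 0.019 in the full mutant, and -0.11, -0.10 and -0.10 in hrde-1, set-32 hrde-1 and met-2 set-25 hrde-1, with the gap taking 0.931 of the range.

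At 7 bins the change with 1 factor differed with the state of another, by the limma interaction term. The hrde-1 and set-32 terms at III 62001, III 63001, III 64001, III 65001 and III 66001 were 1.94, 3.01, 1.99, 2.02 and 1.95 on the log2 scale. The set-32 and met-2 set-25 terms were 2.82 at III 61001 and -2.76 at X 59001.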

How the results depend on the processing

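The values and calls below are from limma at the same threshold, for 1 change of setting at a time, except those of the exact permutation test. Counts among bins averaging 5 RPKM or more come from a fit and adjustment run on those bins alone. The prefix term set the prefix of 4 libraries against the others together. For hrde-1 loss, ends lower in the difference numbered 0, and 1 with averages, with the inner control at 300 to 600 kb and with 100 kb windows (0 to 2 when 1 library was left out). Ends lower in level numbered 1, and 0 after quantile normalization or with the prefix as a term (0 to 1). Bins higher numbered 3, and 1 when centred, after quantile normalization and among bins averaging 5 RPKM or more, and 0 with the prefix (0 to 3). Bins lower numbered 22, and 1 after quantile normalization, 0 with the prefix, 4 without both evenly covered libraries and 2 among bins averaging 5 RPKM or more (4 to 47; at X left 4 to 45).

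For met-2 set-25 loss, the 1 end higher in the difference was 0 with averages, quantile normalization, the prefix and without both evenly covered libraries (0 to 5). The 1 end lower was 0 there and without marked bins, without the outermost 10 kb and with a pseudocount of 5 (0 to 1). Ends higher in level numbered 7, 4 with 100 kb windows, and 0 when centred, quantile normalized, with the prefix or without both evenly covered libraries (0 to 7). The 1 end lower in level was 2 when centred and 0 with averages, quantile normalization, the prefix, a pseudocount of 5 or without marked bins, the outermost 10 kb or both evenly covered libraries (0 to 1). Bins higher numbered 0, and 3 with a pseudocount of 5 (0 to 312, the highest without the met-2 set-25 hrde-1 mutant). Bins lower numbered 7, of which 6 at X left. They were 4 and 3 with a pseudocount of 0.5, 18 and 10 with a pseudocount of 5, 128 and 75 when centred, and 10 at X left with the prefix. Both were 0 after quantile normalization, without both evenly covered libraries and among bins averaging 5 RPKM or more (3 to 103 in all ends, 3 to 43 at X left).

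Directions turned only for the level with met-2 set-25 loss. Centred, it was -0.30 at II left, -0.16 at II right, -0.013 at III left, -0.28 at III right and -0.19 at IV left. After quantile normalization it was -0.10, -0.060, -0.044 (II left, II right, III left) and -0.14 (IV left), and with 100 kb windows -0.035 at II left.

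For set-32 loss, bins higher numbered 2 with the prefix (0 to 2 without 1 library, as for bins lower). Bins with a hrde-1 and set-32 interaction numbered 5, 0 when centred, quantile normalized or among bins averaging 5 RPKM or more, and 14 without both evenly covered libraries (0 to 9). For hrde-1 with met-2 set-25 there were 0, and 1 with the prefix or without both evenly covered libraries (0 to 4). For set-32 with met-2 set-25 there were 2, 1 with a pseudocount of 0.5, 13 when centred, and 0 after quantile normalization or among bins averaging 5 RPKM or more (0 to 77). In the difference, ends with that interaction numbered 0 to 2 when 1 library was left out. Exact permutation, with 24 tests and a smallest p of 0.0286, called no end after adjustment. A higher mean filter changes which bins enter the fit, and fewer libraries remain when some are left out. The causes of the changed counts were not tested. No analysis paired by replicate was possible because each genotype has 1 library. The pairs by background given above match genotypes.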
